A study of Mus musculus with 28 samples.

Results

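The genes described here are 33 genes that are widely used as markers of astrocytes, taken as a list by symbol and read as counts from dorsal hippocampus of male C57Bl6 mice. All 33 were found among the 50686 genes of the count table, each with a single Ensembl identifier, and all 33 were among the 16735 genes that passed a filter on low counts. The 28 libraries fall into 6 groups. Basal mice (n = 4) had no fear conditioning and no treatment. The other groups all went through auditory fear conditioning, a task that links a tone to a foot shock, and were given Vehicle (n = 4), Cort (n = 5), RU486 (n = 5), C108 (n = 5) or C118 (n = 5). Cort is the usual short form of corticosterone, the main glucocorticoid hormone of mice, and RU486 is mifepristone, an antagonist of the glucocorticoid receptor. C108 and C118 are known only by these code names. No dose or time is stated in the sources used here. Libraries are called by group and sample number, such as Cort 36.

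Astrocytes clear glutamate from synapses, convert it to glutamine, buffer potassium, cover blood vessels with their endfeet and couple to each other through gap junctions built of connexins. In the hippocampus they surround the synapses of the principal neurons. Like most cell types they hold the glucocorticoid receptor, which enters the nucleus when corticosterone rises during stress and changes transcription at its target genes. No group was conditioned without being treated, or treated without being conditioned, so conditioning and treatment cannot be told apart in any comparison with Basal.

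Levels are in CPM, counts rescaled to 10 to the power of 6 per library after library sizes had been adjusted for composition, and fold changes are on the log2 scale with their standard error (SE). A gene is called where the quasi-likelihood test of edgeR gave a p-value below 0.05 after Benjamini-Hochberg adjustment over all 16735 genes. Gene counts totalled 16.24 to 20.3 M per library (M, 10 to the power of 6). Per kilobase of exon, the mean levels of the members ran from 445 CPM for Sparcl1, a secreted matrix protein, and 444 CPM for Glul, glutamine synthetase, down to 1.57 CPM for Etnppl, 1.53 CPM for Gjb2 and 1.44 CPM for Slc7a11. C1ql2, a marker of dentate granule neurons and so of the labelled tissue, averaged 90.5 ± 4.9 CPM in Basal (SD, n = 4). It averaged 72.8 ± 13.9 CPM (SD) over the conditioned libraries and was called lower there (log2 fold change -0.33 ± 0.11 SE, edgeR adjusted p = 0.041). The tissue is a mixture of cell types, and in such bulk samples fewer astrocytes and less RNA of a gene per astrocyte cannot be told apart.

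Cort 36, C108 39 and C118 38 stood apart in these genes. A member score per library, the mean over the 33 genes of log2 CPM centred on each gene's own mean, was -0.38, -0.51 and -0.55 in them, against -0.18 to 0.29 with a median of 0.07 in the other 25. In these 3 libraries 32, 33 and 33 of the 33 members lay below their own mean. Other cell types moved in the same libraries. The score of 12 microglia markers was -0.42, -0.41 and -0.49 (other libraries at least -0.12), that of 12 endothelial markers -0.71, -1.27 and -1.28 (others at least -0.68) and that of 12 neuron markers 0.22, 0.22 and 0.21 (others at most 0.11). Reads that did not align made up 5.84%, 6% and 5.73%, below the 6.2% to 10.69% of the others. Oligodendrocyte scores, at -0.45, -0.51 and -0.35, lay within the range of the others (lowest -0.58), and oligodendrocyte precursor scores were -0.05, 0.01 and 0.02. The score of pericytes and smooth muscle was -0.4, -0.79 and -0.68 (others at least -0.47). These 3 libraries thus had astrocyte, microglia and endothelial scores low together with neuronal scores high. Counts of called members against Basal are therefore given with and without these 3 libraries. They also carry the 3 highest sample numbers of the 28, and what the numbers stand for is not stated in the labels. Vehicle 16 stood apart in another way, with a score of 14 thalamus markers of 2.16 and of CA1 markers of -1.11, and thalamus scores were also high in Vehicle 3 (1.19) and Cort 4 (1.13). Vehicle 29 had the lowest scores of CA3 (-0.88), dentate gyrus (-0.51) and ependymal markers (-1.58). Vehicle 16 and Vehicle 29 also had the highest member scores (0.28 and 0.29) and neocortex scores (0.84 and 0.65) of all libraries.

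**Figure D1:**
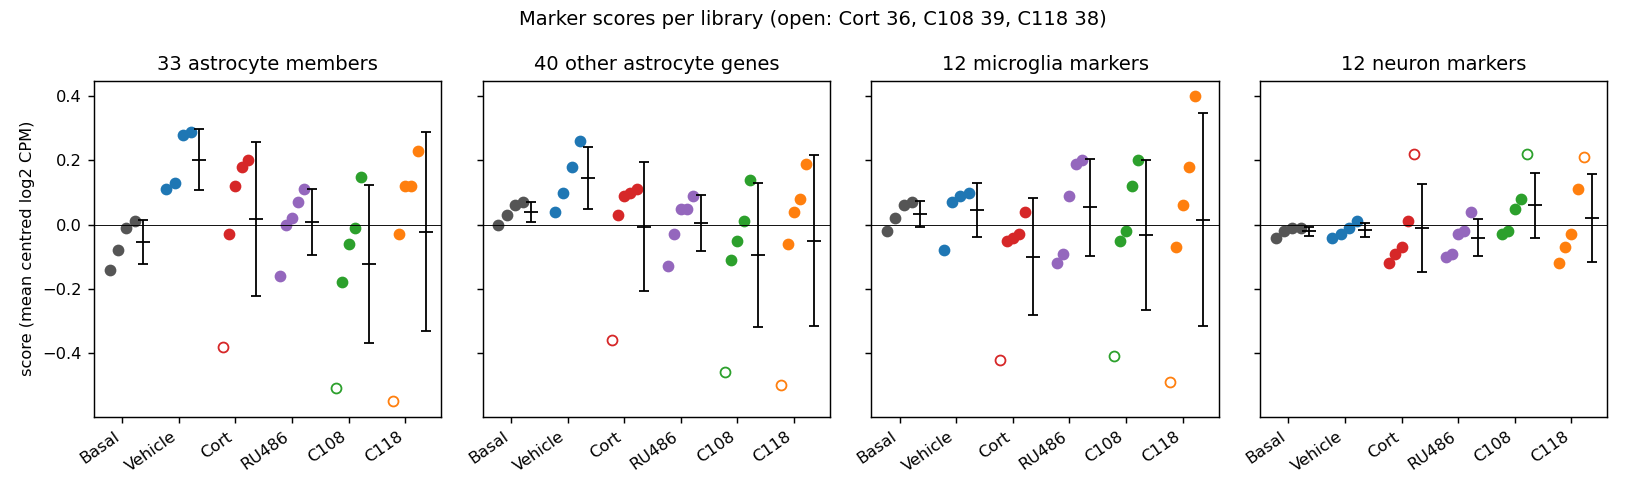
Marker scores (mean centred log2 CPM, vertical axis) of every library by group, for the 33 members, 40 other astrocyte genes, 12 microglia markers and 12 neuron markers; bars give mean ± SD. The open circles (Cort 36, C108 39, C118 38) lie lowest for both astrocyte lists and microglia, and highest for neurons at 0.21 to 0.22.

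The promoters of the 3 members that rose in most comparisons are shown first, because these genes moved together. Each is the 250 bases before the RefSeq start site (GRCm38.p6, mm10), 5′ to 3′ on the gene's strand, with no base in capitals. Mertk lies on the plus strand of chromosome 2, with the window at chr2:128698665-128698914.
Mertk: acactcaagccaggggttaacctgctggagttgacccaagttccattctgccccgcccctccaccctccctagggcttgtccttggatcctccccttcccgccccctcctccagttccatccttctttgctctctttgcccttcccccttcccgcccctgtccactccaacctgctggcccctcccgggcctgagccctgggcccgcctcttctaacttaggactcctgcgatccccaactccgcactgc
Gjb6 lies on the minus strand, with the window at chr14:57133612-57133861.
Gjb6: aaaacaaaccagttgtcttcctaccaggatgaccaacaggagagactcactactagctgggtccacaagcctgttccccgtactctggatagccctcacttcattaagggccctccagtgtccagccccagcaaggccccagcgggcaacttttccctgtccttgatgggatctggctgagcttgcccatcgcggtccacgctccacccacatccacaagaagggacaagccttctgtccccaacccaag
Etnppl lies on the plus strand, with the window of the first of its start sites at chr3:130617198-130617447.
Etnppl: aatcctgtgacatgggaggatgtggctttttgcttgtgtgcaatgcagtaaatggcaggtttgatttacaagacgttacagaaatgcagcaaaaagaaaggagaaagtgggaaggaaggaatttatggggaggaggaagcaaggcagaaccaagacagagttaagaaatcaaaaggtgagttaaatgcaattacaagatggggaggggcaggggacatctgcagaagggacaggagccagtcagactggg
The windows differ in composition, with 63.6% G and C for Mertk, 56.8% for Gjb6 and 46% for Etnppl, against a median of 52.4% over all 32851 promoters. The glucocorticoid response element is a pair of facing arms, AGAACA and TGTTCT, 3 bases apart. Searched on both strands, it was in none of the 36 promoter windows that matched 28 of the members, and in 0.00913% of all windows of this length. The single arm TGTTCT, which is part of the pair, was in 4 of the 36 windows, those of Apoe, Hepacam, Slc1a3 and Slc7a11, and in 16.1% of all. These matches describe the letters of short windows alone.

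The first question was what changed in conditioned mice. The mean of the 5 conditioned groups was compared with Basal. Of the 33 astrocyte genes, 3 rose, Mertk, Gjb6 and Etnppl, and 1 fell, Sox9. The remaining 29 had log2 fold changes from -0.55 to 0.41 and were not called. The 4 called members are 12.1% of the list, near the 11.2% called among all genes (4.89% higher and 6.29% lower), and the median log2 fold change was 0.04 for the members and 0.01 for all genes. The share of called genes was thus close to the background, and the most abundant markers were among those not called. Without Cort 36, C108 39 and C118 38 there were 7 called members, beside 12.2% of all genes, and the gains were Glul (log2 fold change 0.25, adjusted p = 0.0176), F3 (0.33, adjusted p = 0.0155) and Fgfr3 (0.27, adjusted p = 0.0348), all higher after conditioning. These 3 libraries were set aside for their low member scores and are all conditioned, so leaving them out raises the members in the conditioned mean. The gains are therefore descriptions, not independent results. Why these 3 libraries were low was not tested.

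**Figure D2:**
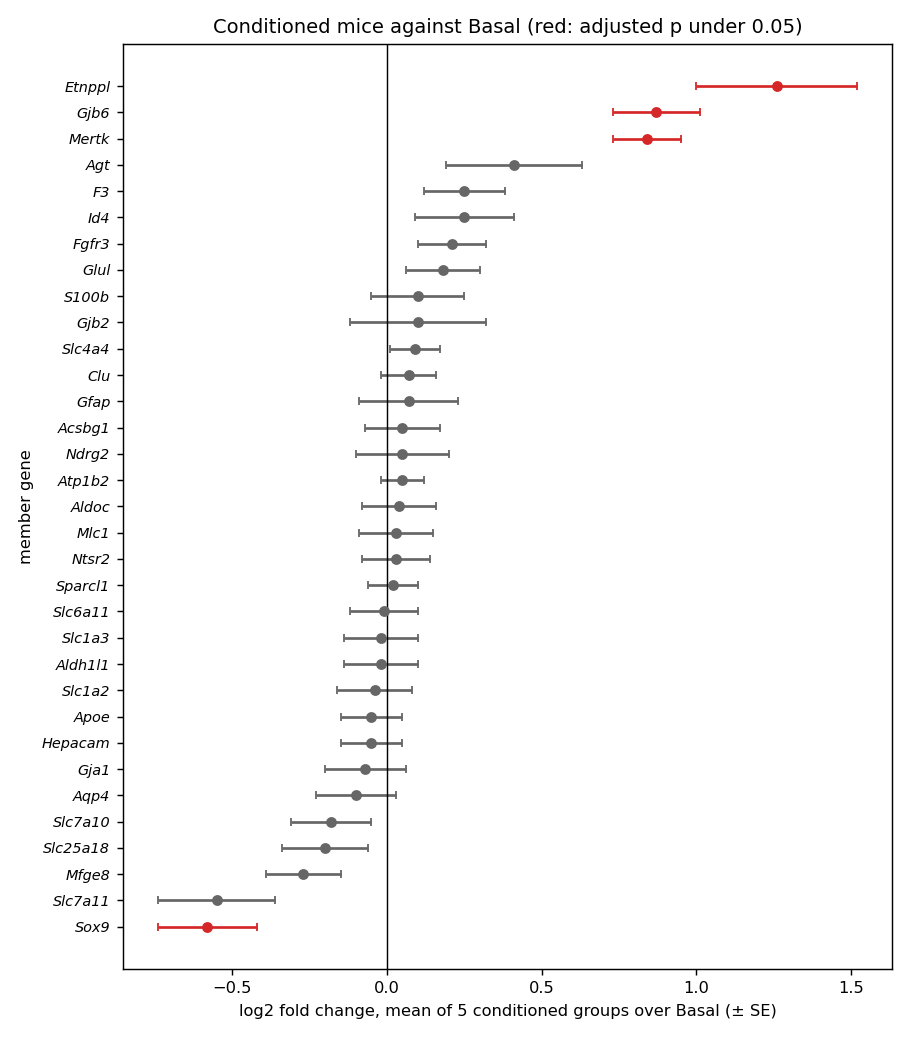
Log2 fold change with SE of each of the 33 members, mean of the 5 conditioned groups over Basal, ordered by size; red marks an adjusted p under 0.05. Etnppl (1.26), Gjb6 (0.87) and Mertk (0.84) lie to the right of the rest, and Sox9 (-0.58) is furthest to the left.

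Mertk is a receptor tyrosine kinase through which astrocytes and microglia engulf synapses and debris. Its levels in Basal 1, 9, 14 and 27 were 24.9, 28.8, 22.4 and 25.8 CPM. Vehicle 3, 16, 23 and 29 held 47.3, 51.9, 50.1 and 61.9 CPM. Every Vehicle library was above every Basal library. Cort 4, 11, 17, 30 and 36 held 48.2, 52, 49.1, 53.8 and 38.8 CPM. RU486 6, 12, 19, 25 and 32 held 44.7, 45.2, 39, 31.3 and 40.5 CPM. With RU486 the lowest library, RU486 25, was still above Basal. C108 8, 21, 26, 34 and 39 held 42.3, 49.8, 42.2, 43.9 and 36.8 CPM. C118 7, 13, 20, 33 and 38 held 43.6, 47.7, 51.3, 47.8 and 29.1 CPM. All 24 conditioned libraries thus lay above all 4 Basal libraries, as they did for 0.502% of all genes, and the lowest of them was C118 38, a library low in astrocyte genes as a whole. The mean rise was 1.78-fold (log2 0.84 ± 0.11 SE, edgeR adjusted p = 1.51e-05), and by group 2.07-fold in Vehicle, 1.9-fold in Cort, 1.58-fold in RU486, 1.69-fold in C108 and 1.72-fold in C118, each called. It was called in the test of any difference among the 6 groups as well (adjusted p = 0.000315).

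Of the 3 connexin genes, Gjb6 rose and the others were not called. No test of the difference between them is reported here. Gjb6, connexin 30, which couples astrocytes to each other, was 34.6, 43.3, 31 and 32.7 CPM in Basal 1, 9, 14 and 27. Vehicle 3, 16, 23 and 29 held 62.5, 73.5, 74.5 and 87.9 CPM, and Cort 4, 11, 17, 30 and 36 held 89.7, 76.1, 69.6, 78.1 and 54.9 CPM. Both groups lay wholly above Basal. RU486 6, 12, 19, 25 and 32 held 55.5, 69.9, 64.8, 46 and 60.5 CPM. C108 8, 21, 26, 34 and 39 held 65.1, 73.6, 58, 58.7 and 45 CPM, and C118 7, 13, 20, 33 and 38 held 58.7, 65, 68.3, 58 and 37.9 CPM. Of the 24 conditioned libraries 23 were above every Basal library, the exception being C118 38. The share of all genes with such a partial or single-group separation was not computed. These counts, here and for the other members, are therefore descriptions. The mean rise was 1.83-fold (log2 0.87 ± 0.14 SE, adjusted p = 0.000106), with 2.11-fold in Vehicle, 2.08-fold in Cort, 1.68-fold in RU486, 1.7-fold in C108 and 1.63-fold in C118, each called. The calls in RU486 and C118 did not hold without Basal 14 (adjusted p = 0.0523 and 0.079). Gja1, connexin 43, the main astrocyte connexin, ran from 213 to 263 CPM in Basal and from 133 to 282 CPM with a median of 239 after conditioning (log2 fold change -0.07 ± 0.13 SE, adjusted p = 0.786). Gjb2, connexin 26, was near the low end of the list at 3.69 CPM on average (log2 fold change 0.10 ± 0.22 SE, adjusted p = 0.81).

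Taken within a library, Gjb6 relative to Gja1 is a ratio in which a shared change of both genes cancels. This ratio was chosen after the values had been seen, and the tests made on it are not reported here. The log2 CPM of Gjb6 minus that of Gja1 was -2.76 ± 0.14 in Basal (SD, n = 4), -1.79 ± 0.13 in Vehicle (n = 4), -1.57 ± 0.11 in Cort (n = 5), -1.99 ± 0.14 in RU486 (n = 5), -1.78 ± 0.12 in C108 (n = 5) and -1.93 ± 0.10 in C118 (n = 5). Basal ran from -2.92 to -2.60 and overlapped with no conditioned group. As Gjb6 was already called higher and Gja1 was not called, this separation is a description and no further result. How many other gene pairs separate groups as fully was not computed. Cort 36, C108 39 and C118 38, low in both genes, lay within the range of the other conditioned libraries. Among the conditioned groups Cort had the highest ratios, -1.72 to -1.47, above all those of RU486 (-2.13 to -1.80) and C118 (-2.03 to -1.81) and overlapping those of Vehicle (-1.95 to -1.64) and C108 (-1.94 to -1.60).

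**Figure D3:**
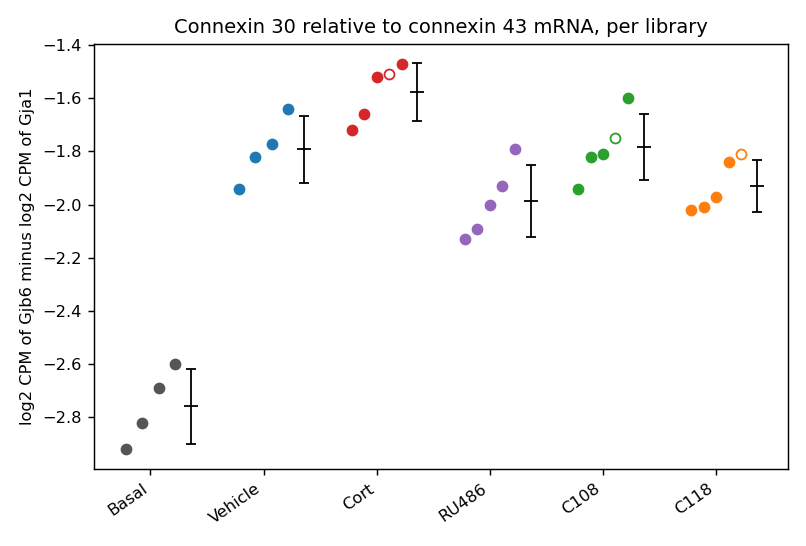
Log2 CPM of Gjb6 minus log2 CPM of Gja1 in each library, by group, with mean ± SD (bars); open circles are Cort 36, C108 39 and C118 38. Basal lies at -2.92 to -2.60, below every conditioned library, and Cort is highest at -1.72 to -1.47. The ratio was chosen after the values had been seen.

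Among the metabolic enzymes only Etnppl was called. It encodes an enzyme that breaks down phosphoethanolamine. Its level was 7.01, 5.75, 4.72 and 5.6 CPM in Basal 1, 9, 14 and 27 and 17.9, 30.9, 21.2 and 16.9 CPM in Vehicle 3, 16, 23 and 29. Cort 4, 11, 17, 30 and 36 held 16.3, 25.1, 16.1, 15.4 and 8.54 CPM. The Vehicle and Cort libraries all lay above Basal, Cort 36 by the least. RU486 6, 12, 19, 25 and 32 held 8.48, 11.8, 9.47, 10.2 and 19 CPM. C108 8, 21, 26, 34 and 39 held 10.8, 12.2, 6.19, 9.59 and 6.15 CPM. C118 7, 13, 20, 33 and 38 held 10.8, 20, 16, 12 and 8.13 CPM. In all, 22 of 24 conditioned libraries lay above Basal, and the exceptions, C108 26 and C108 39, lay within its range. How many of all genes separate as far was not computed. The rise was 2.39-fold on average (log2 1.26 ± 0.26 SE, adjusted p = 0.00227). By group it was 3.77-fold in Vehicle, 2.82-fold in Cort, 2.31-fold in C118 and 2.05-fold in RU486, all called, and 1.56-fold in C108, not called (adjusted p = 0.227). The RU486 call was marginal (adjusted p = 0.0459) and held without RU486 6 but not without any of the other 8 libraries compared. The C118 call did not hold in 5 of 9 such fits, those without Basal 1, Basal 14, Basal 27, C118 13 or C118 20. With no filter on low counts the adjusted p was 0.12 in RU486 and 0.0704 in C118, and it was 0.104 and 0.0555 after both region scores (thalamus, neocortex) had been added to the fit. Aldoc (aldolase C), Aldh1l1 (a folate enzyme), Acsbg1 (a fatty acid ligase) and Ndrg2 had log2 fold changes of 0.04, -0.02, 0.05 and 0.05 in the conditioned mean.

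Sox9, the transcription factor that sets astrocyte fate, was the called member that fell. Basal 1, 9, 14 and 27 held 22, 11.6, 21.3 and 17.5 CPM. Vehicle 3, 16, 23 and 29 held 10.8, 11.5, 15.4 and 11 CPM, and Cort 4, 11, 17, 30 and 36 held 13, 9.79, 8.72, 10.2 and 7.72 CPM. Basal 9 was as low as many conditioned libraries, while the other Basal libraries were above all of them. RU486 6, 12, 19, 25 and 32 held 13.3, 13, 10.6, 16.6 and 14 CPM. C108 8, 21, 26, 34 and 39 held 8.48, 15.6, 12.6, 15.6 and 8.13 CPM, and C118 7, 13, 20, 33 and 38 held 14.7, 13.5, 15.3, 14.3 and 9.04 CPM. So 11 of 24 conditioned libraries were below every Basal library and 0 above. The mean log2 fold change was -0.58 ± 0.16 SE (adjusted p = 0.0146), and that of Cort alone -0.87 ± 0.20 SE (adjusted p = 0.00693). The mean call did not hold without Basal 1 (adjusted p = 0.13) or without Basal 14 (adjusted p = 0.119). Gfap, the intermediate filament that marks reactive astrocytes, ran from 268 to 355 CPM in Basal and from 188 to 537 CPM after conditioning, with the 2 highest libraries, C118 20 and C118 33, at 537 and 500 CPM (log2 fold change 0.07 ± 0.16 SE, adjusted p = 0.82). S100b, a calcium-binding protein, and Id4, a transcriptional inhibitor, had log2 fold changes of 0.10 and 0.25, both not called.

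**Figure D4:**
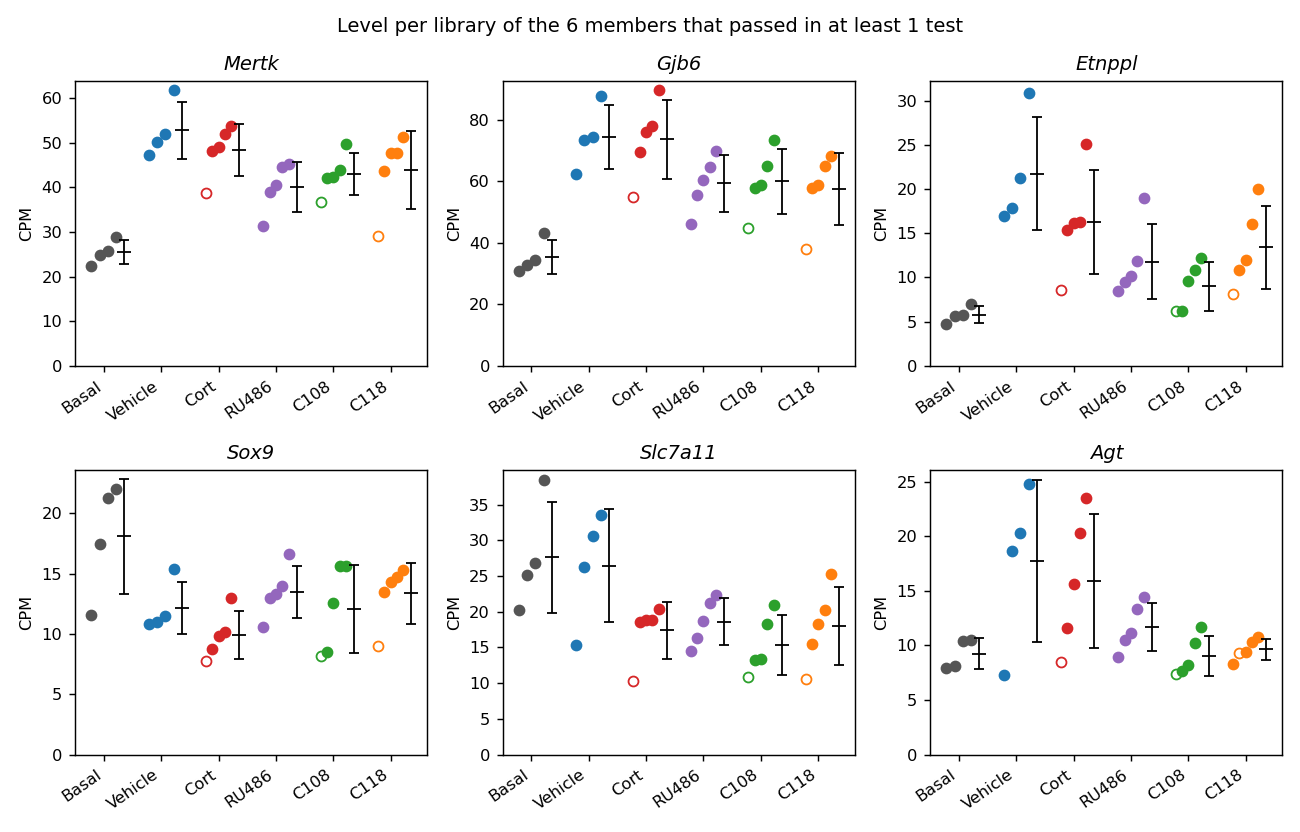
CPM of the 6 members called in at least 1 comparison, in every library by group, with mean ± SD (bars); open circles are Cort 36, C108 39 and C118 38. Mertk, Gjb6 and Etnppl are lowest in Basal, whereas 3 of 4 Basal libraries are highest for Sox9.

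Of the 7 genes of amino acid transport and synthesis, edgeR called 0 in the conditioned mean against Basal. At an unadjusted p under 0.05 there was 1 (25.4% of all genes), Slc7a11, which DESeq2 called (13% of all genes). Slc1a2 and Slc1a3, the glutamate transporters GLT-1 and GLAST, were 2893 to 3595 and 582 to 684 CPM in Basal and had medians of 3195 and 633 CPM after conditioning (log2 fold changes -0.04 ± 0.12 and -0.02 ± 0.12 SE). Glul was 1179 to 1515 CPM in Basal with a median of 1561 CPM after conditioning, and 15 of 24 conditioned libraries lay above Basal (log2 fold change 0.18 ± 0.12 SE, adjusted p = 0.358 with all 28 libraries). Slc7a10 (a serine and alanine exchanger), Slc25a18 (a mitochondrial glutamate carrier) and Slc6a11 (the GABA transporter GAT-3) had log2 fold changes of -0.18, -0.20 and -0.01. Slc25a18 and Slc7a10 overlap the opposite-strand genes Atp6v1e1 and Lrp3, whose counts were 943% and 282% of theirs, and S100b overlaps Dip2a with 66.9%. Whether counting used strand is not stated in the labels, so the values of these members are uncertain.

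Slc7a11, the cystine-glutamate exchanger, was the lowest member per kilobase and was called by edgeR in a single comparison, C108 against Basal, where it was lower. Basal 1, 9, 14 and 27 held 38.5, 25.1, 26.8 and 20.2 CPM, Vehicle 3, 16, 23 and 29 held 30.6, 26.3, 15.4 and 33.5 CPM, and C108 8, 21, 26, 34 and 39 held 18.3, 21, 13.4, 13.2 and 10.9 CPM. Of the C108 libraries only C108 21 reached into the Basal range. Cort 4, 11, 17, 30 and 36 held 20.4, 18.6, 18.9, 18.8 and 10.3 CPM. RU486 6, 12, 19, 25 and 32 held 21.3, 18.7, 14.5, 16.3 and 22.3 CPM, and C118 7, 13, 20, 33 and 38 held 18.3, 20.2, 25.3, 15.5 and 10.6 CPM. The log2 fold change in C108 was -0.85 ± 0.24 SE (adjusted p = 0.0383), but not called without Cort 36, C108 39 and C118 38 (adjusted p = 0.0539) or without C108 39 alone (adjusted p = 0.117). Leaving out Basal 1, Basal 14, C108 26 or C108 34 also ended it, with adjusted p from 0.0878 to 0.206, as did the thalamus and neocortex covariates (log2 fold change -0.67, adjusted p = 0.223) and the absence of a filter on low counts (adjusted p = 0.106). In Vehicle it was -0.06, and in Cort, RU486 and C118 -0.67, -0.57 and -0.62, none called.

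The endfoot and ion genes did not pass. Aqp4, the water channel of endfeet, had a log2 fold change of -0.10 in the conditioned mean, Slc4a4 (a bicarbonate cotransporter) 0.09, Atp1b2 (a sodium pump subunit) 0.05, and Mlc1 and Hepacam, which form an endfoot complex, 0.03 and -0.05. Of the secreted proteins, Apoe, Clu and Sparcl1 had values of -0.05, 0.07 and 0.02. Mfge8, a bridge to phagocytic receptors, was lower in 23 of 24 conditioned libraries than in every Basal library (Basal 85.2, 86.7, 88 and 91.2 CPM). The remaining library, Vehicle 29, was above all Basal libraries, and the log2 fold change of -0.27 ± 0.12 SE was not called (adjusted p = 0.149). How many of all genes had 23 of 24 libraries below Basal was not computed. The other receptors, Fgfr3, Ntsr2 (a neurotensin receptor) and F3 (tissue factor), had log2 fold changes of 0.21, 0.03 and 0.25, not called with all 28 libraries.

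Agt, angiotensinogen, was called in Vehicle against Basal and in the test of any difference. It was 10.5, 8.11, 7.97 and 10.4 CPM in Basal 1, 9, 14 and 27 and 18.6, 24.8, 7.31 and 20.3 CPM in Vehicle 3, 16, 23 and 29, so that 3 Vehicle libraries lay above Basal and Vehicle 23 below. Cort 4, 11, 17, 30 and 36 held 23.5, 15.6, 11.6, 20.3 and 8.44 CPM. RU486 6, 12, 19, 25 and 32 held 10.5, 13.3, 8.94, 11.1 and 14.4 CPM. C108 8, 21, 26, 34 and 39 held 11.7, 10.2, 7.68, 8.22 and 7.42 CPM, and C118 7, 13, 20, 33 and 38 held 9.4, 8.28, 10.3, 10.8 and 9.34 CPM. Agt was highest in Vehicle 16 and next in Cort 4, both high in thalamus markers. Vehicle 29 and Cort 30 followed at 20.3 CPM each, with thalamus scores of -0.32 and 0.89. The log2 fold change in Vehicle was 0.94 ± 0.27 SE (adjusted p = 0.0498), and the call was lost in 7 of 8 fits that left out a library, all but that without Vehicle 23. Across the 28 libraries the Pearson correlation of Agt with the thalamus score was 0.79, as a description, and that of Slc6a11 was 0.69. Adding both region scores (thalamus, neocortex) to the fit gave a log2 fold change in Vehicle of 0.55 (adjusted p = 0.127), and leaving out Vehicle 16 and Vehicle 29 gave 0.49 (adjusted p = 0.559). The adjusted p was 0.131 with no filter on low counts, 0.191 with only Vehicle and Basal in the fit and 0.0628 with the score of 40 other astrocyte genes as a covariate.

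By group, the calls against Basal were as follows. Vehicle had 4 of 33, Mertk, Gjb6, Etnppl and Agt, all higher, beside 4.11% of all genes (1.64% higher, 2.47% lower). Cort had 4 (Mertk, Gjb6, Etnppl and Sox9), beside 6.27% (2.84% higher, 3.43% lower). RU486 had 3 (Mertk, Gjb6 and Etnppl), beside 5.45% (2.61% higher, 2.84% lower). C118 had the same 3, beside 3.87% (1.74% higher, 2.13% lower). C108 had 3 (Mertk, Gjb6 and Slc7a11), beside 6.04% (2.79% higher, 3.24% lower). The median log2 fold change of the members was 0.16 in Vehicle, 0.04 in Cort, 0.02 in RU486, -0.07 in C108 and 0.02 in C118. These 5 comparisons share the 4 Basal libraries. The test of any difference called 4 members (Mertk, Gjb6, Etnppl and Agt), beside 4.73% of all genes. Without the 3 low libraries Vehicle had 8 called members, beside 5.37%, adding F3, Fgfr3, Glul and Slc6a11. Cort then had 6 (5.87% of all genes), adding Agt and F3, and C118 had 4 (2.95%), adding Glul. RU486 kept its 3 (7.25%), C108 had 2 (3.89%), losing Slc7a11, and the test of any difference called 6 (4.21%), adding F3 and Slc6a11. As the 3 low libraries were set aside for their low member scores, the counts without them are descriptions. Without Vehicle 16 and Vehicle 29 the counts were 3 in Vehicle (2.21%) and 3 for any difference (4.07%), both losing Agt. The conditioned mean then had 6 (12.2%), adding Mfge8 and Slc7a11.

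Between a ligand and Vehicle, edgeR called no astrocyte gene. The counts of called members were 0 in Cort (0.00598% of all genes), RU486 (0%), C108 (0.215%, with 0.0538% higher and 0.161% lower) and C118 (0%). At an unadjusted p under 0.05 there were 2, 7, 11 and 9 members, beside 11.6%, 8.16%, 17.4% and 8.01% of all genes. DESeq2 called 0, 0, 4 and 0 members, beside 0.508%, 0.269%, 1.76% and 0.269% of all genes. The 4 in C108, beside 1.76% of all genes by DESeq2, were Etnppl (log2 fold change -1.28, adjusted p = 0.0088), Agt (-0.98, adjusted p = 0.0163), Slc6a11 (-0.51, adjusted p = 0.0376) and Slc7a11 (-0.79, adjusted p = 0.0492). By edgeR, Etnppl in C108 against Vehicle had a log2 fold change of -1.28 ± 0.28 SE with an adjusted p of 0.0567. The edgeR count in C108 against Vehicle rose to 4 without Vehicle 23 and to 1 without Vehicle 3 or without C108 21. The share of all genes called in these fits is not reported here, so the rises are not set against it. Without Cort 36, C108 39 and C118 38 that comparison called 0 of all genes, and so 0 members. It also called 0 of all genes without Vehicle 16 and Vehicle 29, and with the score of 40 other astrocyte genes as a covariate. The log2 fold changes were negative for 32 of 33 members in Cort, 30 in RU486, 33 in C108 and 28 in C118, with medians of -0.18, -0.19, -0.26 and -0.19. All 4 comparisons share the Vehicle libraries, whose member score was 0.21 ± 0.10 (SD, n = 4) against -0.06 ± 0.07 in Basal (SD, n = 4), and the 3 low libraries are all in ligand groups. For Mertk the 95% intervals of the log2 difference from Vehicle were -0.39 to 0.14 for Cort, -0.53 to -0.0 for C118, -0.56 to -0.03 for C108 and -0.66 to -0.13 for RU486.

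Among the 6 direct comparisons of ligands edgeR called 0 members in each, beside 0.0538% of all genes for Cort against RU486 (0.0478% higher in Cort, 0.00598% lower) and 0% for the other 5. At an unadjusted p under 0.05 there were 3 members for Cort against RU486 (5.34% of all genes), 4 for Cort against C108 (4.88%) and 3 for Cort against C118 (4.26%). There were 0 for RU486 against C108 (5.74%) and for RU486 against C118 (1.83%), and 3 for C108 against C118 (2.4%). DESeq2 called 0 members in each, beside 0% to 0.173% of all genes. C108 and C118 differed by a log2 fold change of -0.03 for Mertk (95% interval -0.28 to 0.22) and 0.06 for Gjb6 (-0.25 to 0.37). For Gjb2, the member with the smallest p, the difference was -0.72 (-1.25 to -0.19). It was -0.43 (-0.81 to -0.05) for Gfap and -0.57 (-1.14 to -0.0) for Etnppl, each with an adjusted p far above the threshold. These intervals do not show that the 2 compounds act alike.

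The members moved together from library to library. Over the 528 pairs of members the median Pearson correlation of log2 CPM was 0.57, with 517 positive, and 0.64 after group means were removed. Without Cort 36, C108 39 and C118 38 it was 0.33, so part of the shared variation sat in these 3 libraries. All correlations here are descriptions over 28 libraries that share tissue composition. Gja1, Ndrg2 and S100b followed the score of the 40 other astrocyte genes most closely (0.94, 0.93 and 0.93), whereas Sox9 (0.40), Mertk (0.43), Atp1b2 (0.46), Agt (0.47), Gjb6 (0.50), Etnppl (0.50) and Slc4a4 (0.51) followed it less. With group means removed, the correlation with that score was 0.86 for Mertk, 0.89 for Gjb6 and 0.67 for Etnppl. With the score of 20 known glucocorticoid receptor targets, Mertk, Gjb6 and Etnppl had correlations of 0.87, 0.88 and 0.72, while Sox9 had -0.63 and Slc1a2 0.05. That score and these 3 genes share the step from Basal to the conditioned groups, and with group means removed the correlations were 0.47, 0.63 and 0.31, beside 0.38 for Slc1a2 and -0.28 for Sox9. Of those 20 targets 18 rose after conditioning, beside 4.89% of all genes called higher. Their median log2 fold change was 0.98, and they were led by Fkbp5 (0.97), Plin4 (3.35), Hif3a (2.18) and Tsc22d3 (1.14). This list was chosen with earlier results of these data known, so the count and the correlations are descriptions, not independent results. The 5 nonmember genes most like Mertk over the 28 libraries, of 14522 searched, were Rin2 (0.94), Sdc4 (0.92), Ncf1 (0.91), Tsc22d3 (0.90) and Hif3a (0.89), with the same step between groups included.

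**Figure D5:**
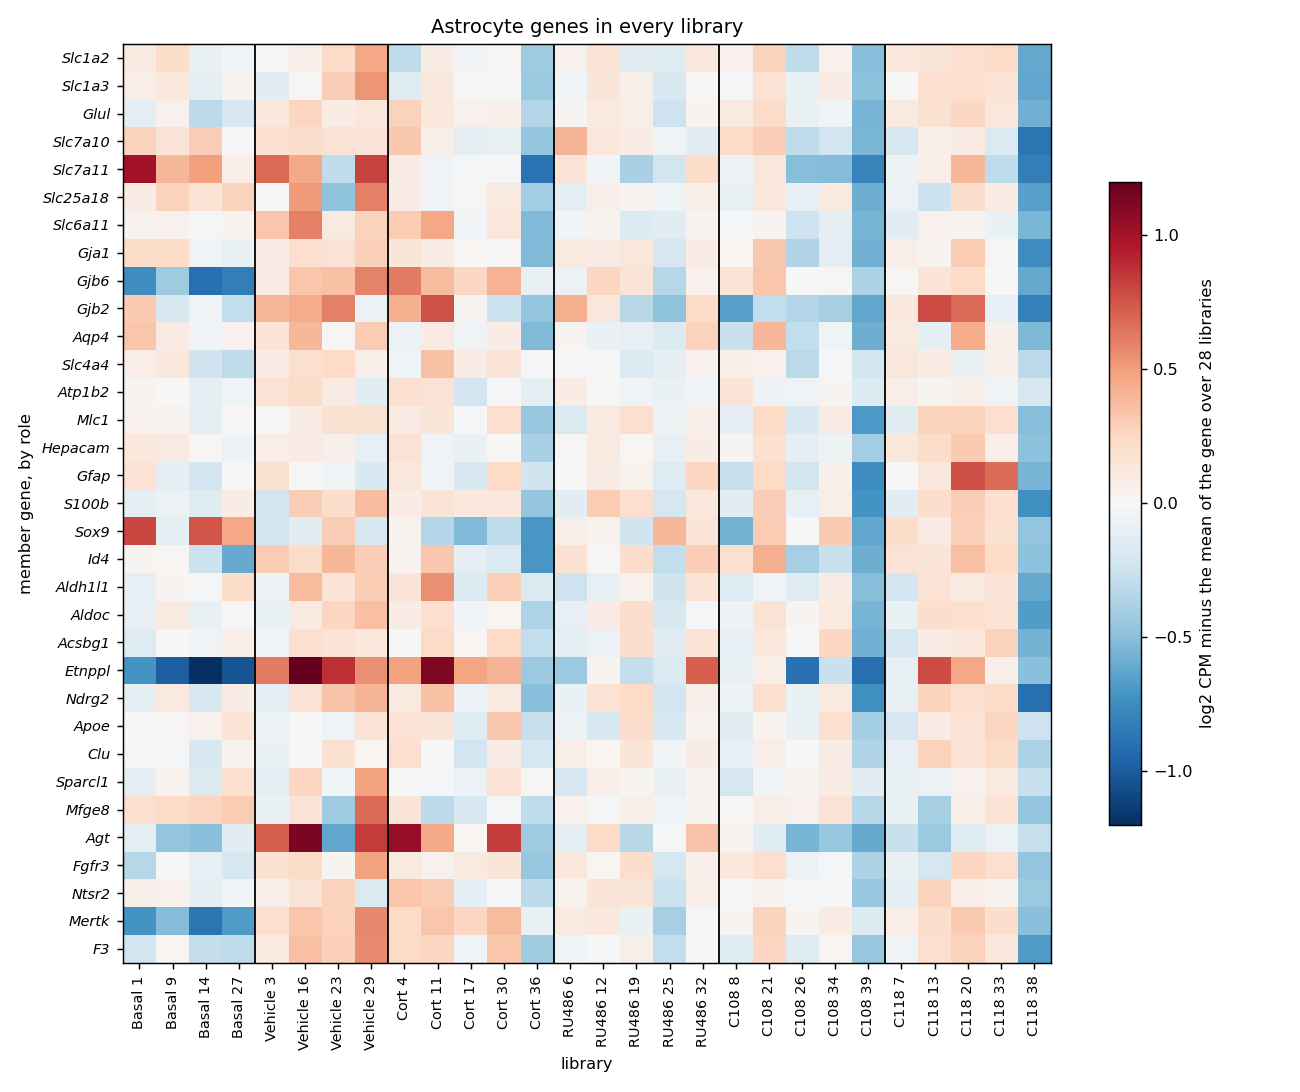
Log2 CPM of the 33 members (rows, by role) in the 28 libraries (columns, by group), centred on each gene's mean. Cort 36, C108 39 and C118 38 are blue in nearly every row, and Mertk, Gjb6 and Etnppl are blue in Basal.

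Other astrocyte lists gave the surroundings of these members in the conditioned mean against Basal, where 11.2% of all genes were called. Of 40 other astrocyte genes 2 rose, Sdc4, a heparan sulfate proteoglycan (log2 fold change 0.84 ± 0.15 SE, adjusted p = 0.000363), and Htra1, a secreted protease (0.50 ± 0.10 SE, adjusted p = 0.000918). Another 5 fell, among them Tril (-0.40) and Ranbp3l (-0.57), and the median was 0.00. Of 29 tested genes of reactive astrocytes 3 rose and 2 fell, with a median of -0.22. Amigo2 (0.54) and Serpina3n (0.47) rose, and S1pr3 (-0.57) was the first of the 2 that fell. Lcn2 also rose but was near 0 in Basal (0.0241 CPM, against 0.566 CPM after conditioning). Of 17 genes of the glutamate cycle edgeR called 0, with 3 at an unadjusted p under 0.05 (25.4% of all genes), and DESeq2 called 0 (13% of all genes). Of 15 genes of glycogen and lactate handling Pdk4, which restrains pyruvate oxidation, rose (0.51) and Slc16a1, a lactate transporter, fell (-0.35).

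Markers of some other cells also moved in that comparison, where 4.89% of all genes were called higher and 6.29% lower. Of 12 endothelial markers 5 fell, led by Kdr (-1.80), Cldn5 (-1.42), Tek (-1.12) and Slco1a4 (-0.94). Of 14 oligodendrocyte markers 4 fell, among them Opalin (-0.76), Gjb1 (-0.92) and Ugt8a (-0.55). Of 12 microglia markers 1 fell, Cx3cr1 (-0.50), near the share of all genes, and the list median was 0.10. Of 9 markers of pericytes and smooth muscle 3 fell, Pdgfrb (-0.94), Myh11 (-1.02) and Vtn (-0.49). Of 12 neuron markers edgeR called 0, with 1 at an unadjusted p under 0.05 (25.4% of all genes), and DESeq2 called 0 (13% of all genes). Of 14 neocortex markers 4 fell, among them Tbr1 (-0.49), Tle4 (-0.30) and Fezf2 (-0.66). Of 11 dentate gyrus markers 2 rose, Pdzd2 (0.73) and Maml2 (0.63), and 5 fell, led by Trpc6 (-0.41) and Tdo2 (-0.41). Of 7 CA1 markers 1 fell, Man1a (-0.64), and of 5 CA3 markers 1 fell, Cdh24 (-0.44), with list medians of 0.01 and -0.07. Both edgeR and DESeq2 called 0 of 7 oligodendrocyte precursor, 10 meningeal, 13 choroid plexus, 7 ependymal and 14 thalamus markers. At an unadjusted p under 0.05 these lists had 3, 1, 0, 0 and 0. The endothelial score was 0.64 ± 0.26 in Basal (SD, n = 4) and 0.19 ± 0.27 in Vehicle (SD, n = 4), with ranges of 0.30 to 0.90 and -0.21 to 0.37. Mertk is also made by microglia, whose score was 0.03 ± 0.04 in Basal and 0.04 ± 0.08 in Vehicle (SD, n = 4 each). The part of these cell types in the member results was not tested.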

How the data were processed

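RNA of 28 libraries was enriched for mRNA and sequenced from both ends in stranded libraries, per the labels' protocols. The authors deposited raw counts per Ensembl gene. The submitters' processing notes name HTSeq 0.6.1 and the build mm10; neither aligner nor annotation is given in the sources used here. The 5 summary rows, 12.63% to 19.74% of reads, were left out, and 0 columns lacked a sample. The 52 pairs of libraries within groups all differed beyond counting noise (lowest chi-square per degree of freedom 5.55). The labels do not say whether libraries are separate mice, so p-values measure the spread between these samples.

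Genes were filtered with filterByExpr (minimum count 10, minimum total 15). All 17 tests came from a single robust quasi-likelihood fit of edgeR 4.0.16 in R 4.3.3 with TMM (22 residual degrees of freedom, common biological coefficient of variation 0.133), tested on simulated data. Log2 CPM used a prior count of 2. DESeq2 1.42.0 was an alternative. Intervals are 95%. Positions follow GENCODE M21 and promoters RefSeq.

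The members and lists were chosen with earlier results of these data known. Members called in any test are given in every library, and the others by range. Of each list with a called gene, up to 4 genes with the smallest p are named, with the 5 genes most like the leading member (mean of at least 1 CPM). C1ql2 was chosen after its values were seen. Some genes of these lists are not reported here.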

Additional observations from a re-analysis of the deposited data

Results flagged for a closer look

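In 19 of 198 sets of a member and a group, 1 library lay apart from the rest of its group by Dixon's criterion. Chance flags about 1 in 20 such sets. The sets are not independent, as members share libraries and vary together, so no excess over chance is read from the count. In each of the 19 the library was the lowest of its group. C118 38 was apart for Slc1a2 (2011 CPM), Slc1a3 (406 CPM), Glul (976 CPM), Gja1 (133 CPM), Gjb6 (37.9 CPM), Hepacam (59.4 CPM), Sox9 (9.04 CPM), Id4 (37.3 CPM) and Mertk (29.1 CPM). Cort 36 was apart for Slc7a11 (10.3 CPM), Gja1 (156 CPM), Aqp4 (122 CPM), S100b (72 CPM) and Fgfr3 (56.5 CPM), and C108 39 for Ntsr2 (62.5 CPM). RU486 25 was apart for Glul (1226 CPM), Gja1 (197 CPM) and Ntsr2 (72.1 CPM), with 32 of 33 members below their own mean. Slc6a11 in Basal 14 was 156 CPM, against 163 to 165 CPM in the other Basal libraries.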

How the results depend on the processing

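No paired analysis was run, as no number recurs across groups and no label ties libraries of different groups together. In number order the groups recur as Basal, Vehicle, Cort, RU486, C118 and C108, with gaps. Whether such runs are sets is not stated, and no fit by run was made. The last run holds only Cort 36, C118 38 and C108 39, so run and group cannot be told apart for them. The alternatives without Cort 36, C108 39 and C118 38, and with the score of the 40 other astrocyte genes as a covariate, were chosen after seeing the data. Without these 3 libraries, set aside for their low member scores, the count of called members was 7 in the conditioned mean (12.2% of all genes). It was 8 in Vehicle against Basal (5.37%). With the astrocyte covariate it was 8 in the conditioned mean (15.1% of all genes), 6 in Vehicle (5.95%), 8 in Cort (8.54%), 4 in RU486 (9.88%), 7 in C108 (5.86%) and 5 in C118 (6.23%), each against Basal, and 5 for any difference (5.5%). DESeq2 called 4 in C108 against Vehicle (1.76% of all genes). Leaving out 1 library at a time gave 3 to 5 called members for any difference, 3 to 6 for the conditioned mean, 3 to 5 for Vehicle, 4 to 5 for Cort, 1 to 3 for RU486, 2 to 4 for C108 and 1 to 3 for C118, each against Basal. Compared with Vehicle, the range was 0 to 4 for C108, 0 to 1 for RU486 and for C118, and 0 for Cort, and it was 0 for each pair of ligands. Shares of all genes called in the fits that left out 1 library are not reported here. Whether members shifted more than other genes can therefore not be read from these ranges. The single calls in RU486 and C118 against Vehicle were Agt, without Vehicle 23 (adjusted p = 0.0412 and 0.00557). Mertk was called against Basal in the conditioned mean and in all 5 groups under every alternative run. No called member changed sign under these alternatives. The causes of these shifts were not tested. The spread between 4 or 5 libraries a group limits precision for abundant members, and counting noise adds to it for Gjb2, with as few as 39 counts in a library.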
